A study of Mus musculus with 8 samples.

Results

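The genes described here are those of the mouse Fc gamma receptors, the surface proteins with which macrophages bind the Fc part of immunoglobulin G (IgG), together with the signalling chain that the activating receptors share. They were 5 of the 50615 genes in the expected-count table. *Fcgr1*, *Fcgr3* and *Fcgr4* encode activating receptors, *Fcgr2b* encodes the inhibitory receptor, and *Fcer1g* encodes the Fc receptor gamma chain. The members were chosen as a family, by name and by their values over all 4 groups of the study, so their levels and fold changes are given as a description. Whether a test called them is stated beside the share of all genes called, and supports nothing here. All 5 were among the 17625 genes that passed the filter on low counts.

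The study asked what NCOA6, a coactivator of nuclear receptors and other transcription factors, does in macrophages. The RNA came from macrophages of C57BL/6 mice (bone marrow-derived, BMDMs), which were grown for 6 days with 20 ng/ml of the macrophage growth factor M-CSF. *Ncoa6*-sufficient BMDMs came from *Ncoa6* fl/fl mice, labelled WT, and *Ncoa6*-KO BMDMs came from *Ncoa6* fl/fl LysM CRE mice, in which the myeloid gene *Lyz2* (LysM) drives the Cre recombinase. Each genotype was given medium alone or LPS + MSU, which was 100 ng/ml of bacterial lipopolysaccharide for 4 h and then 200 μg/ml of monosodium urate crystals, the crystals of gout, for 2 h. There were 2 libraries in each of the 4 groups, and the methods give different mice as their source. Both genotypes carried floxed *Ncoa6* and the controls had no Cre, so an effect of Cre itself and the loss of *Ncoa6* cannot be told apart.

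The 8 libraries held between 25281955 and 33673552 expected counts, and the 2 libraries of a group correlated at Pearson's r of 0.9884 to 0.9927 over 11219 genes. Levels are given as normalized counts, which are counts scaled to a library of 29332189. The targeted gene *Ncoa6* stood at 1515 and 1405 in *Ncoa6*-sufficient BMDMs with medium and at 784.2 and 621.7 in *Ncoa6*-KO BMDMs, and with LPS + MSU at 1297 and 1173 against 563.3 and 526.1. Counts per gene also take in the exons that Cre does not remove. All 12 macrophage markers checked were detected, among them *Csf1r*, the receptor of M-CSF, and *Adgre1*, which encodes F4/80. Of 12 T and NK cell markers 7 were at 0 in all libraries, including *Cd3g*, *Cd8a* and *Ncr1*, as were 4 of 12 mast cell and basophil markers, including *Fcer1a* and *Mcpt4*.

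Fc gamma receptors turn bound antibody into phagocytosis, killing and cytokine release. Fc gamma RI, the product of *Fcgr1*, binds monomeric IgG with high affinity, while Fc gamma RIII (*Fcgr3*) and Fc gamma RIV (*Fcgr4*) take up immune complexes. These activating receptors have no signalling motif of their own and are held at the surface by the gamma chain, whose immunoreceptor tyrosine-based activation motif (ITAM) is phosphorylated by Src-family kinases and then binds the kinase SYK. Fc gamma RIIB carries an inhibitory motif (ITIM) that recruits phosphatases and sets the threshold for the other receptors.

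The motifs that divide the family were read from the coding transcripts of the GENCODE M21 annotation of GRCm38. An ITAM was searched as a tyrosine codon followed after 2 codons by a leucine or isoleucine codon, and the same again 10 to 12 codons further on. Among the coding transcripts of the 5 genes, this pattern was found in *Fcer1g* alone, at codons 65 to 79 of a coding transcript of 86 codons, on the minus strand of chromosome 1 and spread over 2 exons between 171229889 and 171230072. The stretch is shown because it is the signalling part on which the activating receptors depend, with the tyrosine and the leucine codons in capitals.
*Fcer1g* ITAM: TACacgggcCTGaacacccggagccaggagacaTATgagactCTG
In *Fcgr2b* an ITIM, searched as an isoleucine, leucine, valine or serine codon 2 places before a tyrosine codon that is followed 3 places on by a leucine or isoleucine codon, was found once in each of its 4 coding transcripts. It lies in 1 coding exon at chr1:170961071-170961088 on the minus strand, and is shown with the matching codons in capitals as the motif through which this receptor is known to inhibit.
*Fcgr2b* ITIM: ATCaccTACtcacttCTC
The ITIM pattern is short and also matched once in *Fcgr1* and once in *Fcer1g*, and a match is a description only. No match of either pattern was found in *Fcgr3* or *Fcgr4*.

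In GRCm38, *Fcgr1* (ENSMUSG00000015947) lies on chromosome 3 from 96282909 to 96293969 on the minus strand. The other 4 genes share one stretch of chromosome 1. *Fcgr2b* (ENSMUSG00000026656) runs from 170958617 to 170976547 on the minus strand, *Fcgr4* (ENSMUSG00000059089) from 171018920 to 171029761 on the plus strand, *Fcgr3* (ENSMUSG00000059498) from 171051174 to 171064935 on the minus strand, and *Fcer1g* (ENSMUSG00000058715) from 171229572 to 171234365 on the minus strand. An antisense gene, *Gm38204*, overlaps *Fcgr2b*. The library kit keeps strand, but the strand setting of the counting is not given in the sources used here, so reads of the 2 genes may not be told apart.

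*Fcgr2b* and *Fcgr3* encode closely related extracellular parts, and reads from shared sequence can be divided between them only by estimation. Their longest identical run of coding sequence was 129 bases, against at most 14 bases for any other pair of members. The run is printed because it is the longest place where the inhibitory and an activating receptor look the same to a read. It crosses an exon boundary in both genes, between 170966674 and 170968081 in *Fcgr2b* and between 171054167 and 171057792 in *Fcgr3* on chromosome 1.
*Fcgr2b* and *Fcgr3* shared coding run: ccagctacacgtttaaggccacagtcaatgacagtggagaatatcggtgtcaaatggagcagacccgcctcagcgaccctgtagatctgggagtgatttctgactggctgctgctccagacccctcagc
Over whole coding transcripts, 2.12% of the windows of 100 bases in *Fcgr2b* and 2.7% of those in *Fcgr3* also occurred in another gene, and none did in *Fcgr1*, *Fcgr4* or *Fcer1g*. The coding transcripts of the latter 3 genes thus hold no stretch of that length that another gene has.

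Per kb of exon, which is the scale on which levels of different genes can be compared, the signalling chain came first in every group. With medium, *Ncoa6*-sufficient BMDMs held on average 14379 normalized counts per kb of *Fcer1g*, 5521 of *Fcgr3*, 1534 of *Fcgr1*, 900.5 of *Fcgr4* and 191.5 of *Fcgr2b*. No 2 neighbours in this order overlapped between their libraries. In *Ncoa6*-KO BMDMs with medium, *Fcer1g* (12616) and *Fcgr3* (6156) again led, while *Fcgr4* (444.7) and *Fcgr1* (368.9) changed places and overlapped in their libraries. With LPS + MSU the order in *Ncoa6*-sufficient BMDMs was *Fcer1g* at 32610, *Fcgr1* at 11059, *Fcgr4* at 10328, *Fcgr3* at 6722 and *Fcgr2b* at 1883 normalized counts per kb. In those cells *Fcgr1* and *Fcgr4* overlapped, and *Fcgr4*, with libraries at 12982 and 7675, also overlapped *Fcgr3* at 7991 and 5454. In stimulated *Ncoa6*-KO BMDMs *Fcgr3* (5810) stood second, and *Fcgr1* (4250) and *Fcgr4* (4182) overlapped each other. *Fcgr4*, with a library at 5597, again overlapped *Fcgr3*, with one at 5205. The ranks were the same when the longest coding transcript was used as the length.

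**Figure D1:**
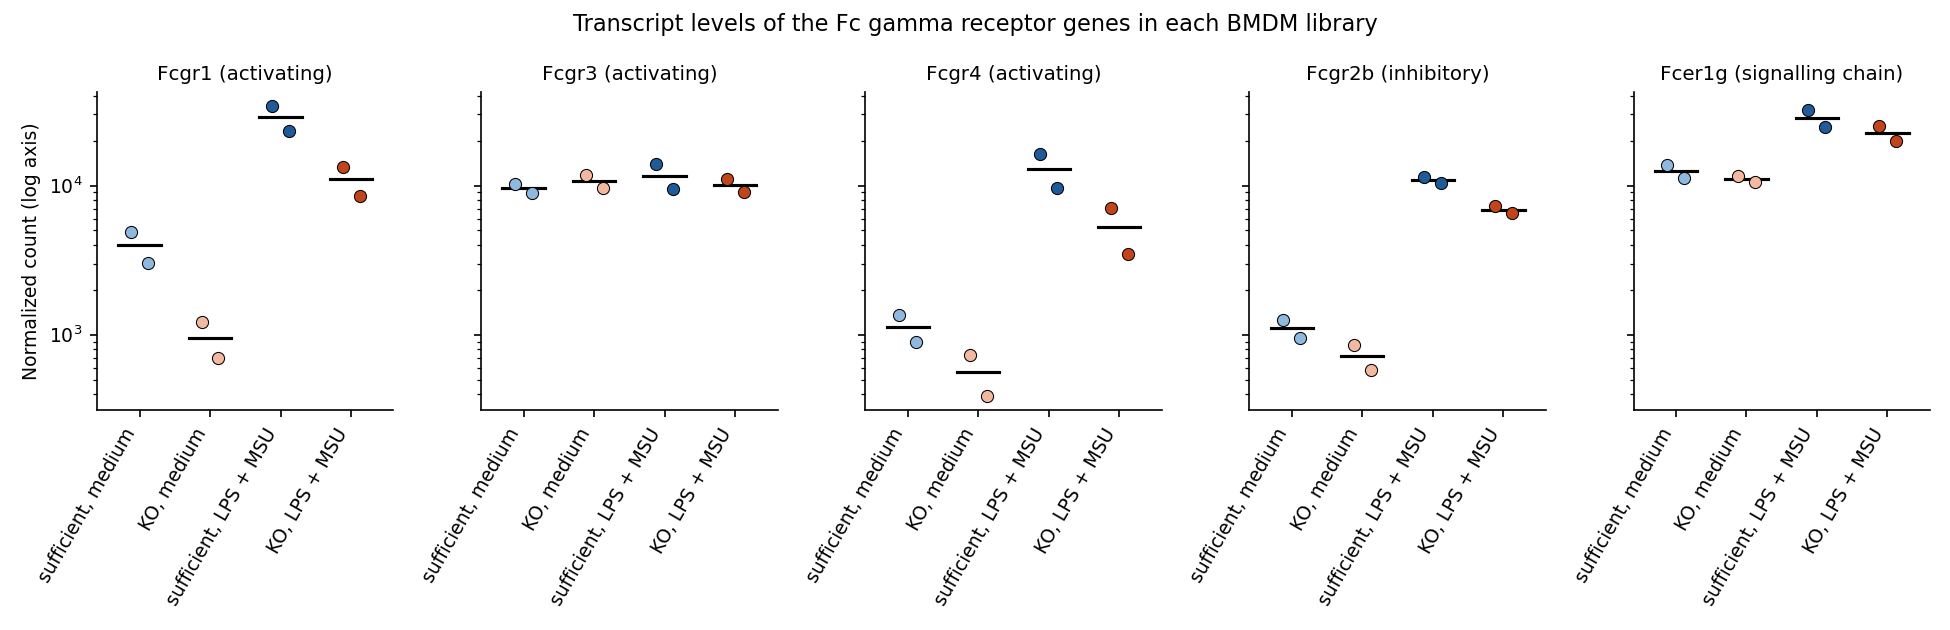
Normalized counts (log axis) of each Fc gamma receptor gene, with 1 point per library, 2 libraries per group and a black line at the group mean; groups are Ncoa6-sufficient or Ncoa6-KO BMDMs with medium alone or LPS + MSU. *Fcgr1* has the widest gap between the genotypes, with no overlap in either condition, and *Fcgr3* stays between 8946 and 13872 in all 8 libraries.

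*Fcgr1*, the high-affinity receptor, showed the largest difference between the genotypes among the members with medium, while with LPS + MSU it and *Fcgr4* differed by less than their standard errors. With medium alone its libraries stood at 4911 and 3033 normalized counts in *Ncoa6*-sufficient BMDMs and at 1213 and 697.2 in *Ncoa6*-KO BMDMs. The genotypes did not overlap, and each *Ncoa6*-KO library held less than either control library. The fitted log2 fold change was −2.05 (SE 0.32, n = 2 per group), which leaves 24.1% of the control level. After LPS + MSU the libraries stood at 33934 and 23328 against 13424 and 8582, again without overlap, at a log2 fold change of −1.38 (SE 0.31) or 38.4% of the control level. Thus *Fcgr1* was lower with *Ncoa6* deleted at rest and after stimulation, while the stimulated *Ncoa6*-KO cells still held more *Fcgr1* than resting control cells.

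*Fcgr4*, whose product binds IgG2a and IgG2b complexes, had libraries at 1361 and 900.6 normalized counts in *Ncoa6*-sufficient BMDMs with medium and at 727.2 and 389.9 with *Ncoa6* deleted. With LPS + MSU they stood at 16305 and 9640 against 7030 and 3475. The genotypes did not overlap in either condition, but the 2 libraries of a group differed by 1.51 to 2.02-fold, the widest spread of any member. The log2 fold change was −1.01 (SE 0.38) with medium and −1.30 (SE 0.36) with LPS + MSU.

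*Fcgr3*, the receptor for immune complexes that every resting group expressed most among the activating receptors, did not separate the genotypes. Its libraries with medium were at 10221 and 8946 normalized counts in *Ncoa6*-sufficient cells and at 11741 and 9633 with *Ncoa6* deleted. With LPS + MSU they were at 13872 and 9468 against 11139 and 9035. The groups overlapped in both conditions. The log2 fold change was 0.16 (SE 0.18) with medium and −0.21 (SE 0.18) with LPS + MSU.

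The inhibitory receptor gene *Fcgr2b* was lower in *Ncoa6*-KO BMDMs by a similar amount in both conditions. With medium the libraries stood at 1265 and 953.1 normalized counts against 851.6 and 578.7, and with LPS + MSU at 11438 and 10367 against 7256 and 6514. Neither pair of groups overlapped. The log2 fold change was −0.63 (SE 0.18) with medium, 64.6% of the control level, and −0.66 (SE 0.17) with LPS + MSU, 63.2% of it. The signalling chain *Fcer1g* had libraries at 13816 and 11318 against 11512 and 10541 with medium, and at 32308 and 24695 against 25001 and 19913 with LPS + MSU. These overlapped in both conditions, at log2 fold changes of −0.19 (SE 0.16) and −0.34 (SE 0.16).

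By the edgeR quasi-likelihood test over all genes, with a gene called at a Benjamini-Hochberg adjusted p under 0.05, *Fcgr1* alone of the 5 members was called with medium, and it alone with LPS + MSU. Of all genes tested, 1.88% were called with medium and 3.59% with LPS + MSU, and 1.3% and 1.63% were called lower in *Ncoa6*-KO. In each condition 3 of 5 members (*Fcgr1*, *Fcgr2b* and *Fcgr4*) were lower in *Ncoa6*-KO without overlap, and 24.5% of all genes tested were so with medium and 22.7% with LPS + MSU. Since the members were selected on these values, nothing is read from the counts. The median log2 fold change of the members was −0.63 with medium and −0.66 with LPS + MSU, and that of all genes tested was −0.03 and 0.00. DESeq2 called *Fcgr1* and *Fcgr2b* in each condition.

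The call of *Fcgr1* depended on single libraries. With medium it was lost without *Ncoa6*-sufficient library 1, at a log2 fold change of −1.66, and without *Ncoa6*-KO library 2, at −1.71. With LPS + MSU it was lost without *Ncoa6*-sufficient library 1, at −1.09, and without *Ncoa6*-KO library 2, at −1.10. The count of called members rose to 2 with medium without *Ncoa6*-KO library 1, when *Fcgr2b* was called too. With LPS + MSU it was 2 without *Ncoa6*-KO library 1 and 2 or 3 without a resting *Ncoa6*-KO library. These numbers come from fits in which the remaining library of a group is assumed to vary like the other groups. In bulk RNA, fewer cells of a type and less RNA per cell cannot be told apart.

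**Figure D2:**
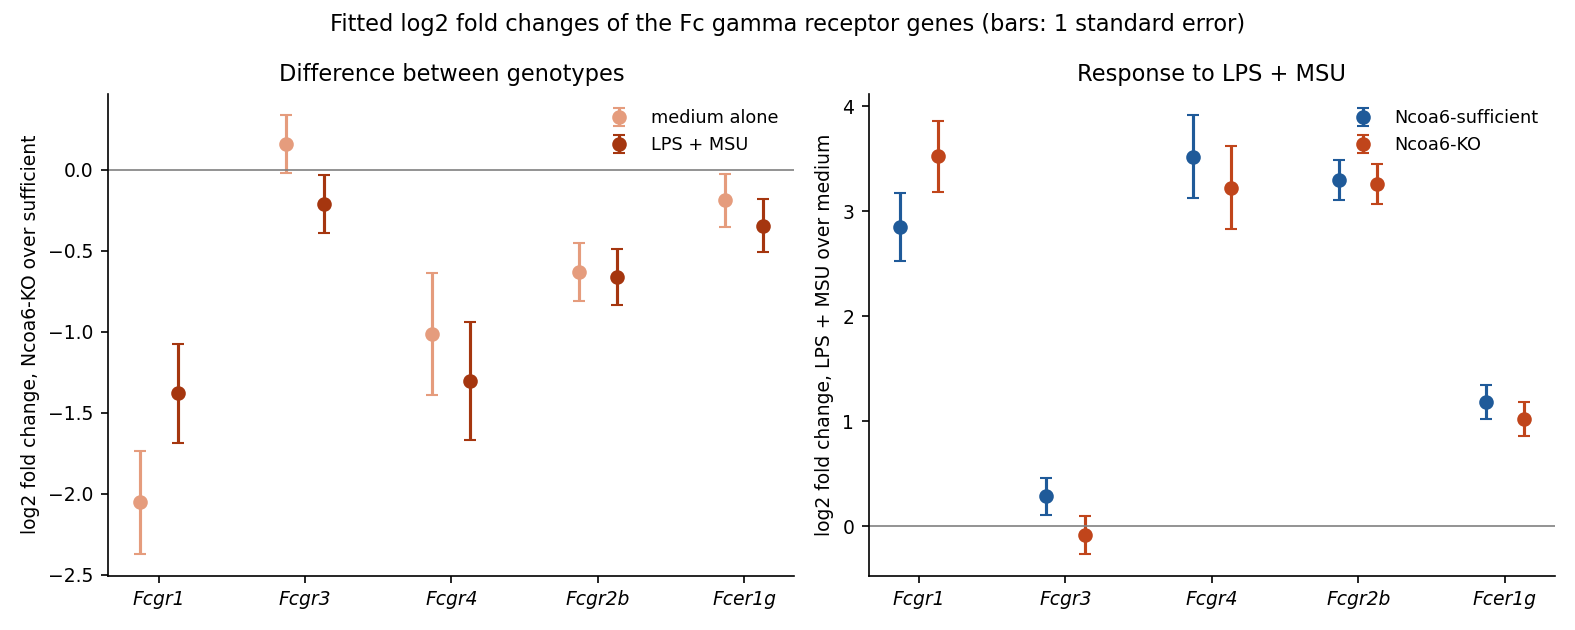
Fitted log2 fold changes of the 5 genes with bars of 1 standard error, n = 2 libraries per group; the left panel sets Ncoa6-KO over Ncoa6-sufficient BMDMs in each condition and the right panel sets LPS + MSU over medium in each genotype. *Fcgr1* lies lowest in the left panel at −2.05 and −1.38, and *Fcgr3* lies near 0 in both panels.

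The summed macrophage markers were also lower in *Ncoa6*-KO. The summed level of the 12 markers was 434276 to 500733 normalized counts in *Ncoa6*-sufficient and 289860 to 329990 in *Ncoa6*-KO cells with medium, and 567071 to 622288 against 423451 to 445474 with LPS + MSU. *Lyz2*, the gene that drives Cre here, made up 51.5% of the sum in resting controls, and its log2 fold change was −1.01 with medium and −0.95 with LPS + MSU (edgeR adjusted p = 0.017 and 0.014). Without *Lyz2* the sums were 224383 to 228636 against 177867 to 202434 with medium, and 349735 to 351959 against 300186 to 316089 with LPS + MSU. Of the 12 markers, 3 were called lower in *Ncoa6*-KO among resting cells (*Lyz2*, *Cd14* and *Marco*) and 3 among stimulated cells, including *Lyz2* and *Itgam*. The part of these markers in the receptor differences was not tested.

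Neutrophils, which also carry *Fcgr3* and *Fcgr4*, were followed by 12 markers whose sum was 1354 to 1427 normalized counts against 1063 to 1193 with medium, and 3625 to 4153 against 2082 to 2760 with LPS + MSU. *Csf3r* led this sum in every group. Without *Csf3r* the sums overlapped between the genotypes in both conditions. They were 621.1 to 651.5 against 575.6 to 712.1 with medium, and 900.7 to 1147 against 954 to 957 with LPS + MSU. None of the 11 tested was called between the genotypes in either condition by edgeR, with 2 and 1 at an unadjusted p under 0.05 and 0 and 1 called by DESeq2. Dendritic cell markers, led by *Bst2*, summed to 5861 to 9003 against 4110 to 5300 with medium and to 20974 to 28032 against 17145 to 21403 with LPS + MSU, and of 10 tested *Itgax* was called lower in stimulated *Ncoa6*-KO cells than in stimulated control cells. B cell markers, which matter because B cells carry *Fcgr2b*, summed to 3715 to 3969 against 3022 to 3760 and to 4917 to 5664 against 5469 to 5531. *Blnk*, which macrophages also express, led that sum, and of 8 tested *Ighm* was called higher in stimulated *Ncoa6*-KO cells than in stimulated control cells. T and NK cell markers summed to at most 260.5 in any library, and mast cell and basophil markers to 294.2 to 604.1 with medium, led by *Kit*, and 1942 to 2743 with LPS + MSU, led by *Hdc*. Their part in the receptor values was not tested.

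LPS + MSU went with much higher levels of 4 of the 5 genes. In *Ncoa6*-sufficient BMDMs the fold over medium was 11.5 for *Fcgr4*, 9.82 for *Fcgr2b*, 7.21 for *Fcgr1* and 2.27 for *Fcer1g*, at log2 fold changes of 3.52 (SE 0.40), 3.30 (SE 0.19), 2.85 (SE 0.32) and 1.18 (SE 0.16). In *Ncoa6*-KO BMDMs the fold was 11.5 for *Fcgr1*, 9.60 for *Fcgr2b*, 9.36 for *Fcgr4* and 2.04 for *Fcer1g*, at log2 fold changes of 3.52 (SE 0.33), 3.26 (SE 0.19), 3.23 (SE 0.40) and 1.03 (SE 0.16). For each of these 4 genes, no stimulated library overlapped a resting library of its genotype. The share of all genes without such overlap was not counted, so this is a description only. *Fcgr3* differed from these 4 genes, with log2 fold changes of 0.28 (SE 0.18) and −0.08 (SE 0.18) and overlapping libraries in both genotypes.

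Of the 5 members, 4 were called higher in each genotype, where 24.7% of all genes tested were called higher in control cells and 25.2% in *Ncoa6*-KO cells. The members were picked for these values too, so the counts are a description. DESeq2 called all 5 in *Ncoa6*-sufficient BMDMs, *Fcgr3* included, and 4 in *Ncoa6*-KO BMDMs. Scaling by DESeq2 size factors moved the median of all genes by 0.11 on the log2 scale in *Ncoa6*-sufficient BMDMs, from −0.12 to −0.01, which is the shift beside which the *Fcgr3* value of 0.28 stands.

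The difference between the 2 responses was measured by the interaction of genotype and stimulus. On the log2 scale it was 0.67 (SE 0.43) for *Fcgr1*, −0.03 (SE 0.25) for *Fcgr2b*, −0.37 (SE 0.25) for *Fcgr3*, −0.29 (SE 0.52) for *Fcgr4* and −0.16 (SE 0.23) for *Fcer1g*. A positive value means that the fold response was larger in *Ncoa6*-KO BMDMs. None of the 5 was called by edgeR or by DESeq2, and none had an unadjusted p under 0.05. Of all genes tested 0% were called by edgeR, although 1045 had an unadjusted p under 0.05 and DESeq2 called 43. The value for *Fcgr1* was called by edgeR when no filter on low counts was set, at 0.68. That fit gave much smaller p-values for some genes, and nothing is read from the call.

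Set against each other, the summed activating transcripts and the inhibitory one shifted with the stimulus. The sum of *Fcgr1*, *Fcgr3* and *Fcgr4* per kb was divided by *Fcgr2b* per kb within each library, a ratio of transcripts that does not depend on library scaling and says nothing of protein. The level of the ratio depends on the length used, as *Fcgr2b* has 5790 bases of exon but 3544 in its longest coding transcript. With medium this ratio was 40.6 and 42.8 in control libraries and 53.1 and 61.3 in those of *Ncoa6*-KO cells. With LPS + MSU it was 17.3 and 12.4 against 13.7 and 10.03. The stimulated libraries were all below the resting ones. In control cells the log2 response to the stimulus was 2.85 for *Fcgr1*, 3.52 for *Fcgr4*, 0.28 for *Fcgr3* and 3.30 for *Fcgr2b*. In *Ncoa6*-KO cells it was 3.52, 3.23, −0.08 and 3.26 in the same order. Of the activating genes, *Fcgr3* alone thus lay far below *Fcgr2b* in its response. Between genotypes the groups did not overlap with medium, where the log2 difference was 0.45 with a pooled SD of 0.11, and they overlapped with LPS + MSU, where it was −0.32 with a pooled SD of 0.33. The log2 difference between stimulated and resting cells was −1.51 (pooled SD 0.24) in control cells and −2.28 (pooled SD 0.25) in *Ncoa6*-KO cells. An exact permutation test of 2 against 2 libraries cannot give a p below 0.333, so no test was run on the ratio.

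The make-up of the activating transcripts also differed between genotypes, with a smaller part of *Fcgr1* and a larger part of *Fcgr3* in *Ncoa6*-KO. The share of *Fcgr1* in the activating transcripts per kb was 21.4% and 16.6% in *Ncoa6*-sufficient BMDMs with medium and 6.00% and 4.39% in *Ncoa6*-KO BMDMs. *Fcgr3* made up 66.4% and 73.2% against 86.6% and 90.5%. After LPS + MSU the share of *Fcgr1* was 38.5% and 40.7% against 30.1% and 29.4%, and that of *Fcgr3* was 23.4% and 24.6% against 37.3% and 46.1%. *Fcgr4* held 12.2% and 10.2% against 7.41% and 5.07% at rest, and 38.1% and 34.7% against 32.5% and 24.5% after stimulation. Each of the 3 shares was thus free of overlap between the genotypes in both conditions. The 3 shares are parts of the same sum, so they do not vary independently. The counts of *Fcgr3* itself overlapped between the genotypes in both conditions.

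**Figure D3:**
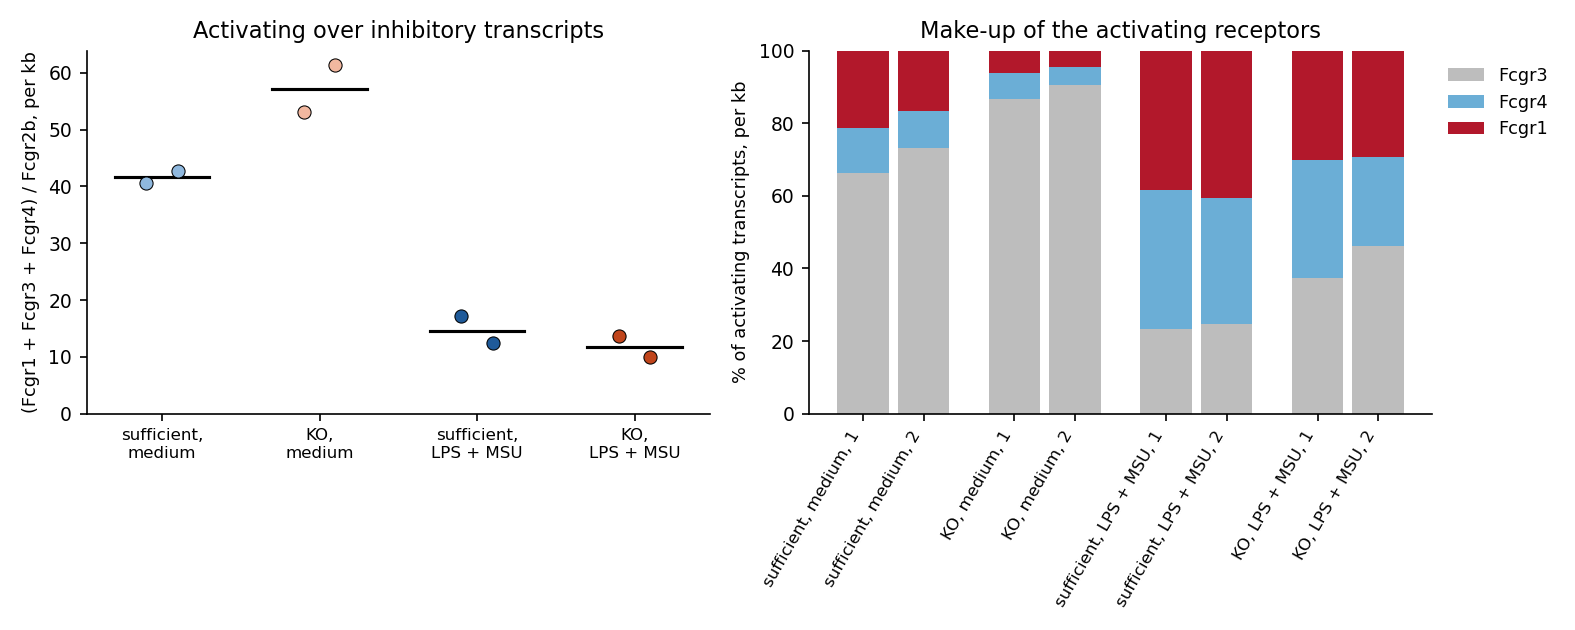
Left, the ratio of activating to inhibitory transcripts per kb of exon in each library, with a black line at the geometric mean of a group; right, the share of *Fcgr3*, *Fcgr4* and *Fcgr1* in the activating transcripts of each library in %. The ratio lies between 40.6 and 61.3 with medium and between 10.03 and 17.3 with LPS + MSU, and *Fcgr1* takes 4.39% to 6.00% in resting Ncoa6-KO BMDMs.

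Across the 8 libraries, *Fcgr1*, *Fcgr2b*, *Fcgr4* and *Fcer1g* followed each other at a Pearson's r of 0.948 to 0.989 between their log2 levels, and *Fcgr3* followed the others at 0.288 to 0.455. These values describe 8 libraries that fall into 4 groups, and no p is given. The library numbered 1 was higher than the library numbered 2 in all 4 groups for 5 of 5 members, where 15.5% of 11219 genes, those whose mean reached 50 normalized counts, had that order. The fold between the libraries of a group was 1.45 to 1.74 for *Fcgr1*, 1.10 to 1.47 for *Fcgr2b*, 1.14 to 1.47 for *Fcgr3* and 1.09 to 1.31 for *Fcer1g*. By the same measure over 11214 genes, the pattern most like *Fcgr1* was that of *Lgals3bp*, a secreted glycoprotein gene (r = 0.997). The most like *Fcgr2b* was *Gsdmd*, which encodes the pore-forming gasdermin D (r = 0.999), the most like *Fcgr4* was *Evi2a* (r = 0.998), the most like *Fcer1g* was *Arl5a* (r = 0.999) and the most like *Fcgr3* was *Rnf217* (r = 0.963). The next 4 were *Leng1*, *Atf6b*, *Clec4a1* and *Erp44* for *Fcgr1*, *9930111J21Rik2*, *Sh3bp2*, *Tmem229b* and *Themis2* for *Fcgr2b*, and *Lrrc25*, *Slc37a3*, *Mapre2* and *Ptger4* for *Fcgr4*. They were *Cnp*, *Ssr3*, *Anks1* and *Ints9* for *Fcer1g* and *Erlin2*, *Hcst*, *Ddx6* and *Gm3608* for *Fcgr3*.

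The stretch before the start of each gene was read from RefSeq (GRCm38.p6), for which all 5 genes matched by symbol. The 250 bases before the start were searched on both strands for 3 short motifs. These were the gamma-activated site TTCNNNGAA, the core GAGGAA of sites for the myeloid factor PU.1, and GAAANNGAA, a core of interferon-stimulated response elements. Among 32851 mouse promoters of this length, the first was present in 7.02%, the second in 23.3% and the third in 7.13%. The windows of the activating receptors *Fcgr1*, *Fcgr4* and *Fcgr3* are shown. The RefSeq starts of *Fcgr3* lie inside the gene as GENCODE gives it, at a start within its span, and the window of *Fcgr2b* lies inside its gene too. Capitals mark the matches, and bases that lie in an annotated exon were left out.
*Fcgr1* (chr3:96293970-96294219, minus strand): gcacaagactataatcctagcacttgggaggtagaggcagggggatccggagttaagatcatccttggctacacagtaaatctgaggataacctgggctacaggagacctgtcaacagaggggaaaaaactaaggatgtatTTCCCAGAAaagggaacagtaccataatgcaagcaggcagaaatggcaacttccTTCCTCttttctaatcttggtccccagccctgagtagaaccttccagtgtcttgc
*Fcgr4* (chr1:171018676-171018919, plus strand): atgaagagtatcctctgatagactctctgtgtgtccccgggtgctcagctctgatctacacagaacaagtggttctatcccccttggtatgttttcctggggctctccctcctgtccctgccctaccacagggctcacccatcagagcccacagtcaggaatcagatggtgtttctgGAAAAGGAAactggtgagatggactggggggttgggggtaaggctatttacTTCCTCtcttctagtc
*Fcgr3* (chr1:171059404-171059626, minus strand): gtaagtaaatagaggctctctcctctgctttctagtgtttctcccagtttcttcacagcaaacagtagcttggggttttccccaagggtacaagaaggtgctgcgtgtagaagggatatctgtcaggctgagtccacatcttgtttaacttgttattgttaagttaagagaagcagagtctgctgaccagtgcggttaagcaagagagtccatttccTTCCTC
*Fcgr1* held the gamma-activated site from 109 bases before its start and the PU.1 core 55 to 50 bases before it. *Fcgr4* held the interferon-response core 73 to 65 bases and the PU.1 core 22 to 17 bases before its start. *Fcgr3* has 2 annotated starts close together and held the PU.1 core 15 to 10 bases before the later one. None of the 3 motifs was present in the windows of *Fcgr2b* and *Fcer1g*. *Fcgr2b* was lower in *Ncoa6*-KO without overlap, as *Fcgr1* and *Fcgr4* were, and only 47 of the 250 bases of its window lie outside exons. Whether the motifs have a part in the genotype differences was not tested. None of these matches overlapped another, and the letters alone do not show a bound site.

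The genes that carry or shape the Fc receptor signal were followed through 7 lists with 131 genes tested, which the choice of the members had not used. The lists were written with earlier results of these data known. Their counts and medians are thus a description beside those of all genes. Rising and falling below refer to *Ncoa6*-KO against *Ncoa6*-sufficient cells of the same condition, unless the stimulus is named as the comparison. With medium 7 of the 131 were called (5.34%, beside 1.88% of all genes), of which 1 rose and 6 fell in *Ncoa6*-KO. With LPS + MSU 18 were called (13.7%, beside 3.59% of all genes), of which 7 rose and 11 fell. The median log2 fold change of the lists together was −0.13 with medium and −0.11 with LPS + MSU, beside −0.03 and 0.00 for all genes. Between stimulated and resting cells 100 of the 131 were called in *Ncoa6*-sufficient BMDMs, 69 higher and 31 lower, and 97 with *Ncoa6* deleted, 67 higher and 30 lower. Of all genes tested 55.2% and 53.1% were called in either direction in these responses. By the interaction edgeR called 0, with 19 at an unadjusted p under 0.05 and 2 called by DESeq2. The calls between genotypes depended on single libraries. With medium 0 were left without *Ncoa6*-sufficient library 1, 2 without its library 2, 4 without *Ncoa6*-KO library 2, and 13 were called without *Ncoa6*-KO library 1. With LPS + MSU 1 was left without *Ncoa6*-sufficient library 1, 0 without *Ncoa6*-KO library 2, 11 and 12 without the other library of each genotype, and 10 without either resting *Ncoa6*-sufficient library.

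Among the kinases, adaptors and enzymes of ITAM signalling, 3 of 38 were called with medium and 8 of 38 with LPS + MSU. *Lcp2*, which encodes the adaptor SLP-76 downstream of SYK, was lower in *Ncoa6*-KO cells of both conditions and fell by 0.59 and 0.60 on the log2 scale (edgeR adjusted p = 0.025 and 0.014). *Rasgrp3*, an activator of Ras, rose in *Ncoa6*-KO cells of both conditions, from 858.6 and 1033 to 1622 and 1809 with medium (log2 fold change 0.86, edgeR adjusted p = 0.0080) and from 16.6 and 24.8 to 57.5 and 71.4 among stimulated cells (1.63, adjusted p = 0.013). The latter call was lost by limma-voom and when only the stimulated libraries were fitted (adjusted p = 0.078 and 0.059). *Pik3cd*, the delta catalytic subunit of PI 3-kinase, fell among stimulated cells from 7865 and 6756 in controls to 4647 and 3370 in *Ncoa6*-KO (log2 fold change −0.87, edgeR adjusted p = 0.013). Also called between the stimulated genotypes were *Src*, *Plcg1* and *Lat2*, which were higher in *Ncoa6*-KO, and *Vav3*, which was lower.

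On the inhibitory side, 2 of 14 phosphatases and adaptors of ITIM signalling fell in resting *Ncoa6*-KO cells and 3 of 14 in stimulated ones, and none rose. *Ptpn6*, which encodes SHP-1, a phosphatase that binds phosphorylated ITIMs, fell from 8289 and 7856 normalized counts in controls to 5573 and 5147 in *Ncoa6*-KO among resting cells, and from 14169 and 13489 to 10953 and 8922 among stimulated cells. Its log2 fold changes were −0.59 and −0.48 (edgeR adjusted p = 0.032 and 0.0498), and the second call was lost with the filterByExpr filter and with only the libraries compared (adjusted p = 0.0503 and 0.096). *Ptpn22*, a phosphatase that acts on Src-family kinases, fell in resting *Ncoa6*-KO cells by 0.73 on the log2 scale (edgeR adjusted p = 0.0079). *Csk*, the kinase that holds Src-family kinases inactive, and the adaptor gene *Dok2* fell in stimulated *Ncoa6*-KO cells by 0.42 and 0.80 on the log2 scale (edgeR adjusted p = 0.043 and 0.039). *Csk* was not called with only the libraries compared (adjusted p = 0.077), nor *Dok2* by limma-voom (adjusted p = 0.065).

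The other Fc receptors and antibody-binding proteins showed no called difference between the genotypes. Of 14 listed, 8 were tested, and edgeR called 0 in either condition, with 3 and 0 at an unadjusted p under 0.05 and 0 called by DESeq2. *Fcgrt*, the neonatal Fc receptor that recycles IgG, stood at 1637 and 1376 normalized counts against 1407 and 772.7 with medium and at 807.7 and 709.2 against 841.6 and 695.4 with LPS + MSU. *Trim21*, the cytosolic antibody receptor, stood at 863.9 and 868.8 against 734.1 and 555.8 with medium, and between stimulated and resting cells it was higher by 3.57 on the log2 scale in *Ncoa6*-sufficient BMDMs and by 3.83 in *Ncoa6*-KO BMDMs. The IgE receptor gene *Fcer1a*, whose product also uses the gamma chain, was at 0 in all 8 libraries.

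Of 14 genes listed as other receptors of the gamma chain or other ITAM chains, 10 had counts and 8 were tested. The 8 include *Pirb* and *Hcst*, whose products are neither partners of the gamma chain nor ITAM chains. Likewise 0 of the 8 were called by edgeR in each condition. With medium and LPS + MSU, 1 and 2 had an unadjusted p under 0.05, and DESeq2 called 1 and 0. *Tyrobp*, which encodes the ITAM chain DAP12, stood at 13917 and 10809 normalized counts against 12331 and 11004 with medium and at 12900 and 10768 against 12223 and 11390 with LPS + MSU. *Clec4e*, which encodes the gamma chain partner Mincle, was higher in stimulated than in resting cells by 4.99 on the log2 scale in controls and by 5.58 in *Ncoa6*-KO cells. None of the 6 genes of the phagocyte NADPH oxidase, which makes superoxide after Fc receptor ligation, was called between genotypes by edgeR, with 1 and 0 at an unadjusted p under 0.05 and 1 and 0 called by DESeq2. *Cybb*, its catalytic subunit, stood at 22560 and 19731 against 16720 and 11898 with medium.

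Of 31 genes of actin assembly at the phagocytic cup, 1 was called with medium and 2 with LPS + MSU. *Aif1*, which encodes the actin-bundling protein IBA1 of membrane ruffles, fell in *Ncoa6*-KO cells of both conditions, from 601.2 and 348.4 normalized counts to 193.3 and 115.0 at rest and from 885.3 and 611.5 to 365.9 and 211.3 after stimulation. Its log2 fold changes were −1.61 and −1.37 (edgeR adjusted p = 0.036 and 0.046). Both calls were lost with the filterByExpr filter (adjusted p = 0.0504 and 0.056), and the second also by limma-voom (0.065). *Fmnl1*, a formin, was higher in stimulated *Ncoa6*-KO than in stimulated control cells by 0.51 on the log2 scale (edgeR adjusted p = 0.039), a call lost by limma-voom and when only the stimulated libraries were fitted (adjusted p = 0.053 and 0.088).

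Of 27 cytokine receptors and transcription factors known to act on Fc gamma receptor genes, 1 was called with medium and 5 with LPS + MSU. *Stat2*, a transcription factor of interferon signalling, fell in resting *Ncoa6*-KO cells from 4150 and 3951 normalized counts to 2934 and 1968 (log2 fold change −0.72, edgeR adjusted p = 0.046). The call was lost with DESeq2 size factors, with the filterByExpr filter and with only the libraries compared (adjusted p = 0.054, 0.057 and 0.080). *Spi1*, the gene of PU.1, stood at a log2 fold change of −0.13 with medium and 0.01 with LPS + MSU and was not called. *Il10*, the cytokine that raises *Fcgr1* in macrophages, fell from 2634 and 1306 in stimulated control cells to 589.4 and 439.3 in stimulated *Ncoa6*-KO cells (log2 fold change −1.94, edgeR adjusted p = 0.0052). *Cebpa* and *Tgfbr1* were higher in stimulated *Ncoa6*-KO than in stimulated control cells by 1.87 and 0.69 on the log2 scale (edgeR adjusted p = 0.011 and 0.013), and *Il4ra* was lower. The call of *Cebpa* was lost with only the libraries compared (adjusted p = 0.056). Between stimulated and resting cells *Il10* was higher by 5.78 and 4.88 on the log2 scale in the 2 genotypes, with *Cebpa* at −6.05 and −4.29 and *Tgfbr1* at −2.84 and −2.17.

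**Figure D4:**
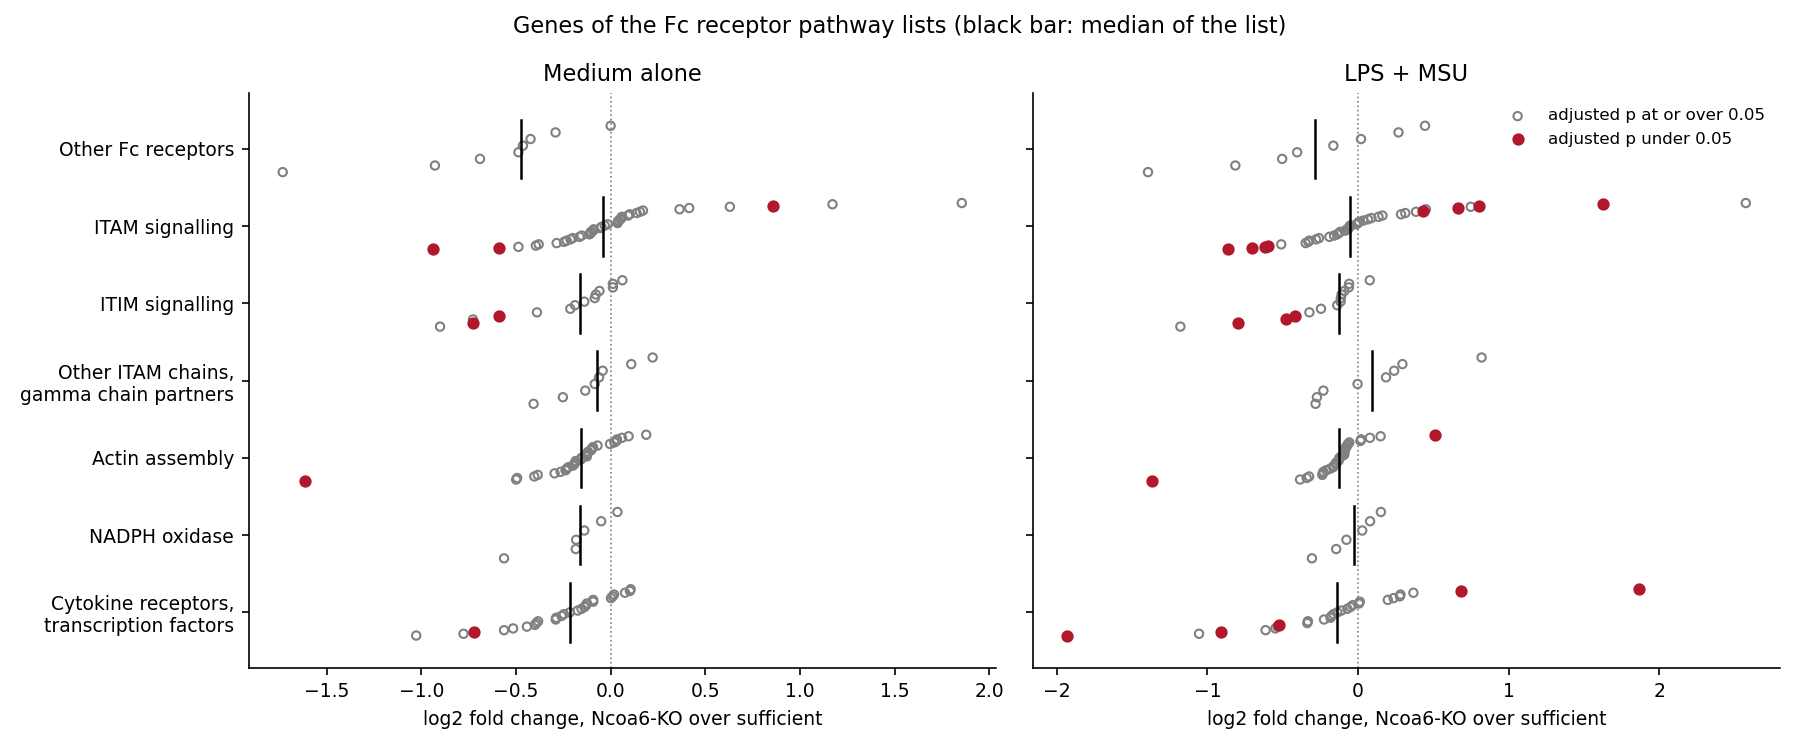
Log2 fold change of Ncoa6-KO over Ncoa6-sufficient BMDMs for each gene of the 7 pathway lists, with 1 point per gene and a black bar at the median of a list; filled red points have an edgeR adjusted p under 0.05. With medium 7 of 131 genes are filled and with LPS + MSU 18, with *Aif1* far to the left in both panels and *Il10* and *Cebpa* at opposite ends of the last list.

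The genes around the receptors were compared between the genotypes as well. Within 250 kb of the 5 genes, 97 genes are annotated and 53 were tested. With medium 0 were called by edgeR and by DESeq2, with 7 at an unadjusted p under 0.05, and the median log2 fold change was −0.01. With LPS + MSU 1 of 53 was called. The shares of all genes called were 1.88% and 3.59%. The called gene was *Sv2a*, a synaptic vesicle protein gene 87.4 kb from *Fcgr1*, which rose from 9.70 and 20.7 in stimulated control cells to 41.8 and 49.0 in stimulated *Ncoa6*-KO cells (log2 fold change 1.57, SE 0.35, edgeR adjusted p = 0.035). That call was absent by limma-voom, and the count was 0 without any 1 of *Ncoa6*-sufficient library 1 or *Ncoa6*-KO library 1 or 2 of the stimulated groups or either resting *Ncoa6*-sufficient library, and 2 or 3 without the second stimulated *Ncoa6*-sufficient library or either resting *Ncoa6*-KO library.

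The neighbours were also compared between stimulated and resting cells. In *Ncoa6*-sufficient BMDMs 26 of 53 were called, 15 higher and 11 lower, and in *Ncoa6*-KO BMDMs 23 were called, 12 higher and 11 lower, where 55.2% and 53.1% of all genes were called. *Fcrlb*, an Fc receptor-like gene 45.7 kb from *Fcgr2b*, went from 3.002 and 0 normalized counts to 33.3 and 41.3 in *Ncoa6*-sufficient BMDMs. The noncoding gene *Gm10522*, 5.40 kb from *Fcgr2b*, was at 0 in all 4 resting libraries and at 18.0 and 17.9 in stimulated *Ncoa6*-sufficient libraries. These counts are low. *Fcrlb* and *Gm10522* were named after their values were seen.

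**Figure D5:**
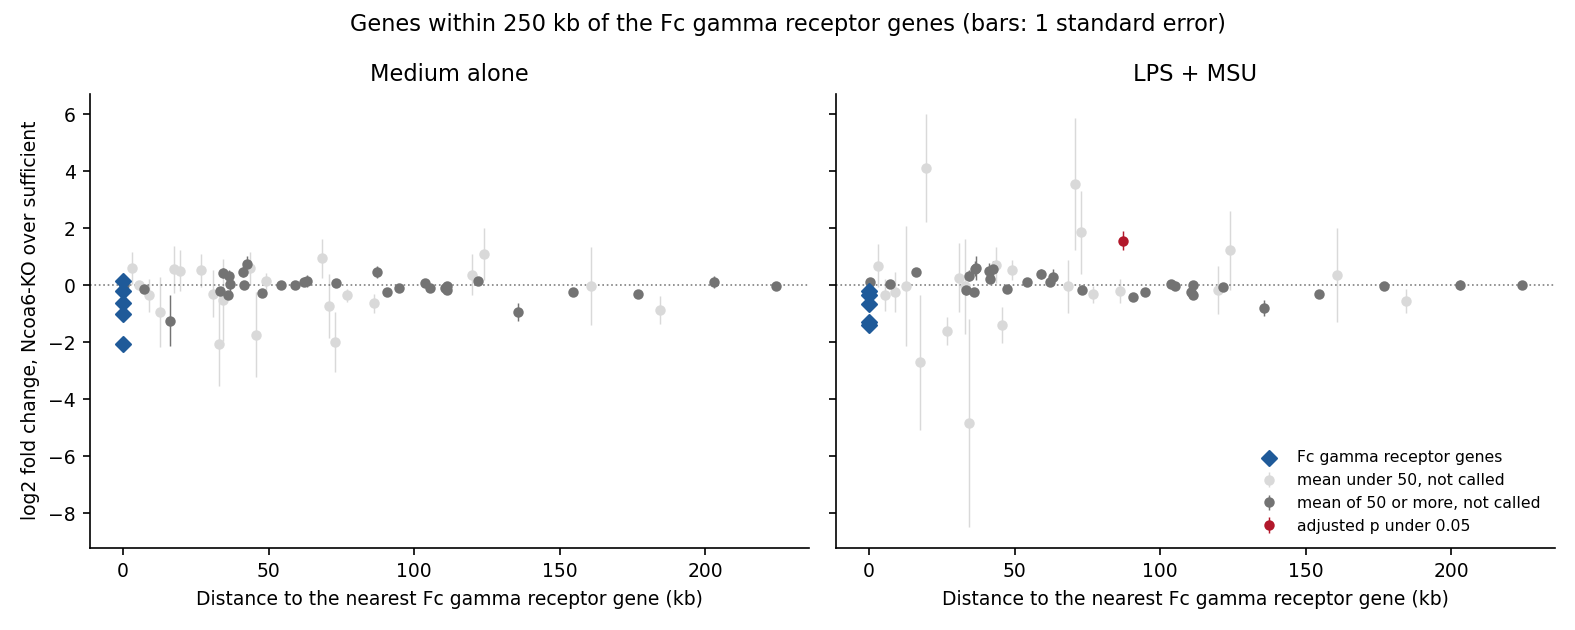
Log2 fold change of Ncoa6-KO over Ncoa6-sufficient BMDMs (bars of 1 standard error) against distance in kb to the nearest Fc gamma receptor gene, for the 53 tested genes within 250 kb, with the 5 receptor genes as diamonds at 0. With medium no neighbour is called; with LPS + MSU *Sv2a* at 87.4 kb is the 1 called gene, and genes of low count scatter widely with large errors.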

How the data were processed

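The authors aligned paired-end reads of stranded mRNA libraries with STAR 2.7.3a, quantified genes with RSEM 1.3.3 against GRCm38 and deposited expected counts per gene. Expected counts estimate how reads shared between genes divide, which can matter for *Fcgr2b* and *Fcgr3*. The deposited table held 50615 Ensembl genes, of which 50295 matched a symbol. Counts were rounded, genes with a sum of at least 10 over the 8 libraries were kept (17625), and edgeR 4.0.16 was run with TMM scaling, 1 coefficient per group and Benjamini-Hochberg adjustment over all genes tested, called under 0.05. DESeq2 1.42.0, the authors' tool, limma 3.58.1 voom, DESeq2 size factors, other filters, fits with a replicate block, only the libraries compared, and each library left out were alternatives. The test was checked on simulated data in which 100 genes were changed by 1 and 100 others by 2 on the log2 scale. With medium it found 83% and 95% of them, with 25 false calls over all 17305 genes. With LPS + MSU it found 81% and 96%, with 19 false calls over 17325 genes. In both runs the false calls were a larger part of the calls than the limit of 0.05. Members, gene lists and tests were chosen with earlier results of these data known. Named genes were the members, up to 3 called genes with the smallest p per list and comparison, called neighbours, the genes most like each member and defining markers. Beyond this rule, other called genes of a list, 5 or fewer at a time, and uncalled list genes of known role were named after their values were seen. Positions are from GENCODE M21. Some genes counted in the lists are not reported here by name. Chi-square per degree of freedom between the libraries of a group was 15.5 to 26.8, so they differed beyond sampling noise. P-values set a difference against the spread between libraries, which the fit shares over the 4 groups of 2 libraries and over genes.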

Additional observations from a re-analysis of the deposited data

Results flagged for a closer look

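*Fmnl1*, a formin of actin assembly, differed between the genotypes in opposite directions in the 2 conditions, and the libraries of the genotypes did not overlap in either. With medium it stood at 4101 and 3856 normalized counts in *Ncoa6*-sufficient and at 3037 and 3058 in *Ncoa6*-KO BMDMs, a log2 fold change of −0.39 that was not called. With LPS + MSU it stood at 825.7 and 955.7 against 1145 and 1396. The interaction of genotype and stimulus was 0.90 on the log2 scale (SE 0.16) with an edgeR adjusted p of 0.27, so the test of the difference itself did not pass. No Fc gamma receptor gene showed such a change of direction without overlap.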

How the results depend on the processing

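On the log2 scale none of the 5 members' called values changed sign under any alternative. The number of members called between genotypes was 1 with medium and 1 with LPS + MSU. It became 2 and 2 with DESeq2, 3 and 3 with no filter on low counts (and 1 for the interaction), and 2 with LPS + MSU with only the libraries compared. Leaving out 1 library gave 0 to 2 and 0 to 3. For the pathway lists, 7 with medium became 17 with DESeq2, 31 with no filter and 11 with limma-voom, and 18 with LPS + MSU became 10 with only the libraries compared. Leaving out 1 library gave 0 to 13 and 0 to 21. Their interaction count of 0 became 2 with DESeq2 and 9 with no filter. For the neighbours, 0 with medium became 2 with no filter, and 1 with LPS + MSU became 3 with DESeq2, 5 with no filter and 0 with limma-voom. Leaving out 1 library gave 0 to 1 and 0 to 3. The ratio of activating to inhibitory transcripts without *Fcgr1* in the sum differed by 0.68 between genotypes with medium and by −1.94 and −2.72 between stimulated and resting cells of the 2 genotypes, and another library scaling cannot change it. The fit with no filter gave much smaller p-values for some genes. For *Aif1* with medium its edgeR adjusted p was 5.1e-26, beside 0.036 with the filter. Nothing is read from the counts of that fit. The cause of these changes was not tested.

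The libraries of all groups are numbered 1 and 2, and whether a number marks a mouse is not given in the sources used here. Same-numbered libraries deviated together at r of 0.283 between the conditions of *Ncoa6*-sufficient cells and 0.353 between those of *Ncoa6*-KO cells. Between genotypes r was 0.0418 to 0.193. Whether same-numbered medium and LPS + MSU libraries shared a mouse was not established. The main fit took all libraries as unpaired. With a replicate block the members called were 3 with medium (*Fcgr1*, *Fcgr2b* and *Fcgr4*), 4 with LPS + MSU (*Fcer1g* as well) and 1 for the interaction (*Fcgr1*), the pathway genes 30, 33 and 5, and the neighbours 1 and 5. With the block within each genotype the interaction counts were 1 member and 15 pathway genes.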
